A study of Mus musculus with 12 samples.

Results

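The data compared here are the responses of 2 kinds of cultured mouse meiotic germ cells to 2 metabolic treatments, over the genes that both kinds of cell express. Of 49216 genes with read counts, 11261 passed the same minimum in both stages, a normalized count averaging 10 or more in the 6 early libraries and again in the 6 later ones. A normalized count is a read count scaled to a common library size. LZ cells are leptotene and zygotene spermatocytes, kept in culture for 6 days with 0.3 mM octyl-L2HG, a form of L-2-hydroxyglutarate that enters cells, or untreated. PD cells are pachytene and diplotene spermatocytes, kept for 48 hours with 24 mM oxamate, a dose that lowers their 2-hydroxyglutarate (2HG) to what LZ cells contain, per the study's description, or untreated. All cells came from C57Bl mice with tdTomato in their germ cells and were sorted by flow cytometry, so the untreated groups share the sort and the culture with the treated ones. Each of the 4 groups had 3 libraries from independent experiments, which are called A, B and C here by a code that the groups share.

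L-2-hydroxyglutarate is a by-product of lactate dehydrogenase and malate dehydrogenase, which reduce 2-oxoglutarate when it takes the place of their usual substrate. It resembles 2-oxoglutarate and can occupy the active site of the dioxygenases that demethylate histones and DNA and hydroxylate prolines. Oxamate resembles pyruvate and inhibits lactate dehydrogenase, on which glycolytic cells depend to renew NAD+. Spermatocytes pass through homologue pairing and recombination in leptotene and zygotene, and in pachytene the X and Y chromosomes are silenced.

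Total counts were 11271410 to 18432143 in LZ libraries with octyl-L2HG, 10532504 to 15903788 in untreated LZ libraries, 19107780 to 21115131 in PD libraries with oxamate and 15202579 to 21275486 in untreated PD libraries. The stages matched their labels. Markers of leptotene and zygotene held 0.984% to 1.22% of counts in LZ libraries and 0.159% to 0.221% in PD libraries, and markers of pachytene and diplotene 0.208% to 0.280% and 2.48% to 2.65%. Within PD cells the pachytene and diplotene markers stood at 2.48% to 2.61% with oxamate and 2.63% to 2.65% untreated, without overlap. Sertoli cell markers stood at 0.00985% to 0.0111% with oxamate and 0.00784% to 0.00813% in untreated PD cells, with Fshr and Rhox5 at 0 in both groups. Endothelial markers stood at 0.00174% to 0.00195% and 0.00276% to 0.00282%, and round spermatid markers at 0.823% to 0.940% and 0.933% to 1.02%. Spermatogonial markers stood at 0.00702% to 0.00786% with oxamate and 0.00642% to 0.00697% untreated, with Sall4 and Crabp1 at 0 in both groups. Leydig cell markers stood at 0.00322% to 0.00356% with oxamate and 0.00398% to 0.00448% untreated. The part of these shifts in the results was not tested. In sorted bulk samples, fewer cells of a type and less RNA per cell cannot be told apart.

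Across the 11261 genes the octyl-L2HG change and the oxamate change were nearly unrelated. The change of a gene is the difference of log2(normalized count + 1) between treated and untreated libraries, fitted with limma over all 12 libraries. Pearson's correlation of the 2 changes was 0.043 and Spearman's was 0.043, with no p given because genes are not independent replicates. The 2 changes share no library. The median octyl-L2HG change was 0.07 with an SD over genes of 0.254, and the median oxamate change was 0.08 with an SD of 0.341. The same sign was seen in 6359 genes, or 56.5%, where 63.9% of the genes had a positive octyl-L2HG change and 63.1% a positive oxamate change. Those small positive medians depended on the scaling, and were -0.007 for octyl-L2HG and 0.003 for oxamate with scaling by total count. Among the 1931 genes with a mean of at least 1000 in both stages, where counting error is small, the Pearson correlation was 0.055.

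The repeat experiments of 1 treatment resembled each other more than the 2 treatments did. Changes computed from 1 code at a time correlated across genes with a Pearson r of 0.119 to 0.278 among the 3 octyl-L2HG experiments and of 0.527 to 0.595 among the 3 oxamate experiments. Between an octyl-L2HG and an oxamate experiment the 9 values were -0.004 to 0.062. Each such change takes a treated and an untreated library of the same stage and code.

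**Figure D1:**
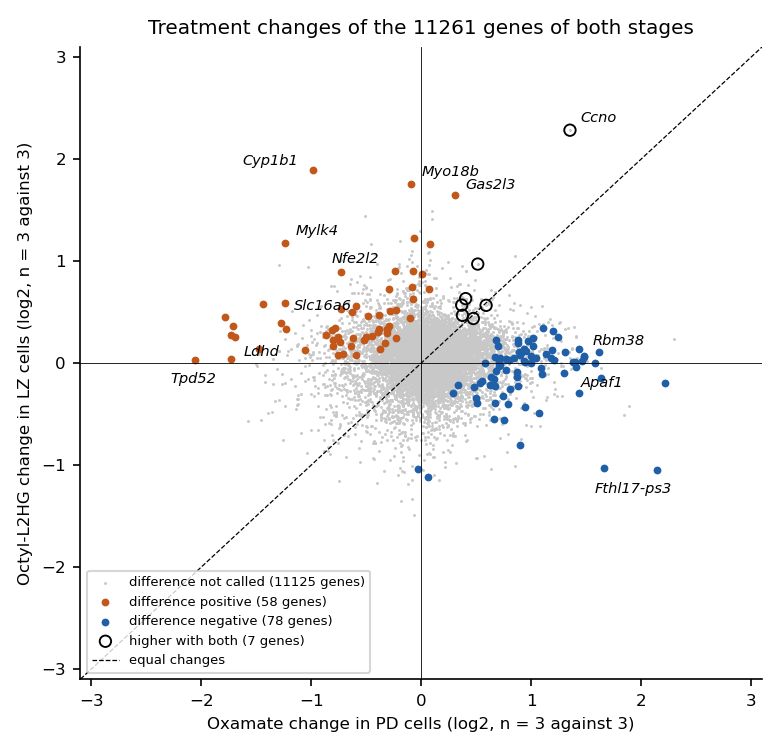
Octyl-L2HG change in LZ cells (vertical axis, log2) against oxamate change in PD cells (horizontal axis, log2) for 11261 genes, each point 1 gene fitted from 3 treated and 3 untreated libraries. The cloud has little slope (Pearson r of 0.043); the 58 genes with a positive difference lie above the line of equal changes, the 78 with a negative difference below it, and 7 circled genes were higher with both treatments.

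For 136 genes the 2 changes differed by limma's test of the difference at an adjusted p under 0.05. The octyl-L2HG change exceeded the oxamate change in 58 of them (0.515% of the genes tested) and fell short of it in 78 (0.693%), while 852 and 1051 genes had an unadjusted p under 0.05. Of the 58 genes with a positive difference, the oxamate change alone was called in 38 and the octyl-L2HG change alone in 13, and the signs of the changes were opposite in 54. Of the 78 with a negative difference, the oxamate change alone was called in 74, the octyl-L2HG change alone in 2, and the signs were opposite in 39. The 95% interval of the difference lay within a 2-fold change either way for 7908 genes (70.2%). Compound, stage and culture time vary together in this design and cannot be told apart.

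With the code as a block within each stage, 452 genes had a positive and 696 a negative difference, and with TMM scaling within each stage, chosen after seeing the data, 111 and 339 did. The count of 136 depended on single libraries. It was 35 without LZ octyl-L2HG B, 35 without LZ octyl-L2HG C, 39 without PD oxamate B, 55 without LZ octyl-L2HG A, 56 without PD untreated C, 85 without PD untreated B, 88 without LZ untreated C, 89 without PD oxamate A, 89 without PD oxamate C and 228 without LZ untreated B. It was 102 without LZ untreated A and 121 without PD untreated A. Of the 35 called differences among genes named by rule or by list, 11 were still called in every leave-out fit that tested them: Myo18b, Nfe2l2, Cyp1b1, AA986860, Ldhd, Slc16a6, Tpd52, Prrc2b, Rbm38, Apaf1 and Atg16l1. Cyp1b1 passed the minimum mean in 9 of those 12 fits. It reached the LZ minimum only through the octyl-L2HG libraries, and Apaf1 the PD minimum only through the oxamate libraries.

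Genes called higher with octyl-L2HG and not called with oxamate included Myo18b, an unconventional myosin. Myo18b had 139, 147 and 118 normalized counts in LZ cells with octyl-L2HG, against 33.0, 49.3 and 36.7 in untreated LZ cells. In PD cells it had 483, 459 and 477 with oxamate and 537, 478 and 498 untreated. The treated LZ libraries all lay above the untreated ones, and the PD groups overlapped. The octyl-L2HG change was 1.75 ± 0.15 (log2, with the SE, limma adjusted p = 0.000128), the oxamate change -0.09 ± 0.15 (adjusted p = 0.838) and the difference 1.84 ± 0.21 (adjusted p = 0.00393). Gas2l3, which links actin filaments and microtubules, had 490, 454 and 470 counts with octyl-L2HG and 135, 154 and 162 in untreated LZ cells, against 23.3, 25.6 and 23.6 with oxamate and 18.6, 22.9 and 17.0 in untreated PD cells. Its treated libraries lay above the untreated ones in both stages. The oxamate change was 0.31 ± 0.17 (adjusted p = 0.334) and the difference 1.34 ± 0.24 (adjusted p = 0.0188). The call of the difference was lost without LZ octyl-L2HG A, B or C, at adjusted p of 0.0572, 0.0622 and 0.0565. Atxn7l1, a paralogue of the SAGA subunit Atxn7, was scarce in LZ cells, with 11.6, 14.8 and 19.4 counts with octyl-L2HG and 5.22, 4.69 and 8.03 without. Atxn7l1 thus reached the LZ minimum of 10 only through the treated libraries. It had 2497, 2567 and 2433 with oxamate and 2422, 2845 and 2603 in untreated PD cells. The octyl-L2HG change was 1.22 ± 0.20 (adjusted p = 0.0163, and 0.053 without LZ untreated A). Its difference of 1.29 ± 0.28 was called at an adjusted p of 0.0415 and was lost in 7 of the 10 leave-out fits that could test it, without LZ untreated A and without each of the 6 PD libraries (adjusted p up to 0.109).

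Nfe2l2 and Txnrd1, of the oxidant response, and Cyp1b1, of the xenobiotic response, also rose with octyl-L2HG. Nfe2l2 encodes NRF2, the transcription factor that Keap1 holds back until oxidants or electrophiles modify it. Nfe2l2 had 1255, 1107 and 1152 counts with octyl-L2HG, against 564, 669 and 651 in untreated LZ cells, and 98.7, 80.9 and 93.5 with oxamate, against 124, 104 and 96.6 in untreated PD cells. The LZ groups did not overlap and the PD groups did. The octyl-L2HG change was 0.90 ± 0.13 (limma adjusted p = 0.00572, and 0.0513 without LZ octyl-L2HG A), the oxamate change -0.24 ± 0.13 and the difference 1.14 ± 0.18 (adjusted p = 0.0104). Txnrd1, the cytosolic thioredoxin reductase, had 1171, 1032 and 1129 counts with octyl-L2HG and 688, 652 and 676 in untreated LZ cells, against 1095, 1077 and 1108 with oxamate and 1005, 1099 and 1014 in untreated PD cells. Its octyl-L2HG change of 0.72 ± 0.08 was called in every leave-out fit, and its difference of 0.65 ± 0.11 (adjusted p = 0.0172) was lost without LZ octyl-L2HG C (adjusted p = 0.0555) or PD oxamate B (adjusted p = 0.0552). Cyp1b1, a cytochrome P450 that the aryl hydrocarbon receptor induces, had 16.2, 10.6 and 23.1 counts with octyl-L2HG and 5.22, 2.35 and 3.44 in untreated LZ cells, so it reached the LZ minimum of 10 only through the octyl-L2HG libraries. In PD cells it had 33.2, 35.5 and 46.2 with oxamate and 72.2, 70.9 and 85.6 untreated. Treated and untreated libraries were apart in both stages and in opposite directions, with changes of 1.90 ± 0.32 and -0.98 ± 0.32 and a difference of 2.88 ± 0.45 (adjusted p = 0.0104). The octyl-L2HG call (adjusted p = 0.0224) was lost without LZ untreated C (adjusted p = 0.0786) or PD oxamate B (adjusted p = 0.0513). The oxamate change missed the threshold (adjusted p = 0.0826) and passed it with the code as a block (adjusted p = 0.0354). Of the 3 genes in the comparison from the aryl hydrocarbon receptor list, Tiparp, a mono-ADP-ribosyltransferase, had changes of 0.42 ± 0.12 and 0.47 ± 0.12, with a called mean of 0.45 ± 0.08 (adjusted p = 0.00632). Its octyl-L2HG change (adjusted p = 0.17) was called with the block (adjusted p = 0.0224), and its oxamate call was lost without PD oxamate B, PD oxamate C, PD untreated A or PD untreated B (adjusted p up to 0.111).

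Of the 19 NRF2 pathway genes in the comparison, 3 rose with octyl-L2HG, 1 rose with oxamate, 2 had a positive difference and 4 were called higher in the mean. Their median octyl-L2HG change was 0.32 and their median oxamate change 0.07, against 0.07 and 0.08 over all genes. Of all 11261 genes, 0.293% were called higher with octyl-L2HG and 8.25% higher and 1.76% lower with oxamate, the background for this and the other list counts. In the mean, 8.92% were called higher. Keap1, which holds NRF2 back, had changes of 0.36 and 0.31, both called with the code as a block (limma adjusted p of 0.0426 and 0.029). Gclm, the modifier subunit of glutamate-cysteine ligase, rose with both. It had 4773, 4378 and 4182 counts with octyl-L2HG and 2969, 3476 and 3200 in untreated LZ cells, against 1069, 1123 and 1019 with oxamate and 804, 874 and 799 in untreated PD cells. The groups were apart in both stages, and the difference of 0.09 ± 0.12 had a 95% interval of -0.17 to 0.35. Its octyl-L2HG call (adjusted p = 0.0385) was lost in 11 of 12 leave-out fits, the exception being that without LZ untreated B (adjusted p up to 0.191), and with TMM scaling within each stage (adjusted p = 0.11). Its oxamate call was lost without PD oxamate B, PD untreated A or PD untreated C (adjusted p of 0.0816, 0.0601 and 0.0659). Chosen after their values were seen, Srxn1, sulfiredoxin, had changes of 0.68 and -0.49 and Slc7a11, the cystine transporter, of 0.57 and 0.90, none of which was called.

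The promoters of these genes are shown because NRF2 binds an antioxidant response element, searched here as TGACNNNGC, and the aryl hydrocarbon receptor a core of GCGTG, each on both strands. The windows run from 250 bases before to 50 after the start, from RefSeq on GRCm38.p6, and each stretch reads in the direction of its gene with the match in capitals. The match of Nfe2l2 starts 240 bases before the gene's start, on the gene's own strand (chr2:75704855-75704913, minus strand). Those of Txnrd1 (chr10:82859074-82859162, plus strand) and Gclm (chr3:122245383-122245471, plus strand) lie 92 and 134 bases before it and on the opposite strand. The Cyp1b1 match lies 76 bases before it, on the opposite strand (chr17:79715093-79715177, minus strand).
Nfe2l2: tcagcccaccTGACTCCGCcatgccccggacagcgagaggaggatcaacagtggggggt
Txnrd1: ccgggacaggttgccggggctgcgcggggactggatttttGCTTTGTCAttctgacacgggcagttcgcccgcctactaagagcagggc
Gclm: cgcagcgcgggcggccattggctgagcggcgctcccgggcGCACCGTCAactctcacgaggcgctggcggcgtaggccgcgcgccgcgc
Cyp1b1: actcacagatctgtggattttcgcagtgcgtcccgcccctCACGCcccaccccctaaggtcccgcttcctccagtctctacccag
Of all 32851 windows, 12.4% hold TGACNNNGC and 32.4% hold GCGTG; among the 10757 windows of the genes compared, 14.3% and 52.2% do. Among the 43 windows of genes called higher with octyl-L2HG the shares are 16.3% and 51.2%. Among the 51 windows of genes with a positive difference the shares are 25.5% and 62.7%, and among the 79 windows of genes with a negative difference 17.7% and 62.0%. A match is a stretch of letters and no measure of binding.

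AA986860, a protein-coding gene known by its clone name, was the only gene called for both changes in opposite directions in the fit without a block. With the code as a block within each stage, Cyp1b1, Ccne1 and Pfkp were also called for both in opposite directions. AA986860 was the one followed here. It had 40.0, 39.1 and 52.2 counts with octyl-L2HG and 23.5, 22.3 and 22.9 in untreated LZ cells, against 178, 176 and 197 with oxamate and 311, 277 and 327 in untreated PD cells. The groups were apart in both stages. The octyl-L2HG change was 0.89 ± 0.16 (limma adjusted p = 0.0388), the oxamate change -0.73 ± 0.16 (adjusted p = 0.0163) and the difference 1.62 ± 0.23 (adjusted p = 0.00721). The octyl-L2HG call was lost whichever of the 12 libraries was left out (adjusted p of 0.054 to 0.13), and the oxamate call without PD oxamate A, PD oxamate B, PD untreated A or PD untreated C (adjusted p of 0.0505, 0.0667, 0.056 and 0.0712).

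In most genes with a positive difference the oxamate change alone was called, as a fall. Ldhd, a mitochondrial dehydrogenase of D-lactate, had 186, 157 and 158 counts with octyl-L2HG and 161, 130 and 131 in untreated LZ cells, against 23.3, 21.7 and 18.7 with oxamate and 62.9, 77.8 and 72.1 in untreated PD cells. The LZ groups overlapped, and every oxamate library lay below every untreated PD library. The oxamate change was -1.69 ± 0.18 (limma adjusted p = 0.000305), the octyl-L2HG change 0.25 ± 0.18 (adjusted p = 0.589) and the difference 1.94 ± 0.25 (adjusted p = 0.0045). Slc16a6, a monocarboxylate transporter family member, had 45.4, 32.8 and 48.6 counts with octyl-L2HG and 26.1, 22.3 and 35.5 in untreated LZ cells, against 174, 171 and 184 with oxamate and 450, 377 and 425 in untreated PD cells. It was lower with oxamate in every library, and its difference was 1.82 ± 0.28 (adjusted p = 0.0104). Tpd52, a vesicle trafficking protein, had 13.1, 12.7 and 17.0 counts with octyl-L2HG and 13.9, 12.9 and 14.9 in untreated LZ cells, against 32.3, 46.4 and 52.1 with oxamate and 146, 189 and 216 in untreated PD cells. Its oxamate change of -2.06 ± 0.25 was called, its octyl-L2HG change of 0.03 ± 0.25 was not, and the difference was 2.08 ± 0.35 (adjusted p = 0.016).

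Prrc2b, a large RNA-associated protein, fell with oxamate from an already low PD level. It had 2015, 1651 and 1762 counts with octyl-L2HG and 1984, 1444 and 1537 in untreated LZ cells, against 22.4, 28.6 and 16.7 with oxamate and 61.7, 60.6 and 67.8 in untreated PD cells, a difference of 1.62 ± 0.25 (limma adjusted p = 0.0104). Of the other positive differences named by rule, Myo15, a motor of hair cells that reached the PD minimum only through the untreated libraries, had 1.78 ± 0.33 (adjusted p = 0.0216), Noxred1, an oxidoreductase-like protein, 1.26 ± 0.26 (adjusted p = 0.0374), and Lgr4, an R-spondin receptor, 1.19 ± 0.25 (adjusted p = 0.0383). The Myo15 call was lost without LZ octyl-L2HG A, LZ octyl-L2HG C, LZ untreated C or PD untreated C (adjusted p of 0.0584, 0.0621, 0.0527 and 0.0527). The Noxred1 call was lost in 10 of 12 leave-out fits, all but those without LZ octyl-L2HG B or LZ untreated B (adjusted p up to 0.0927). The Lgr4 call was lost in 9, all but those without LZ untreated A, PD oxamate A or PD untreated A (adjusted p up to 0.106).

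**Figure D2:**
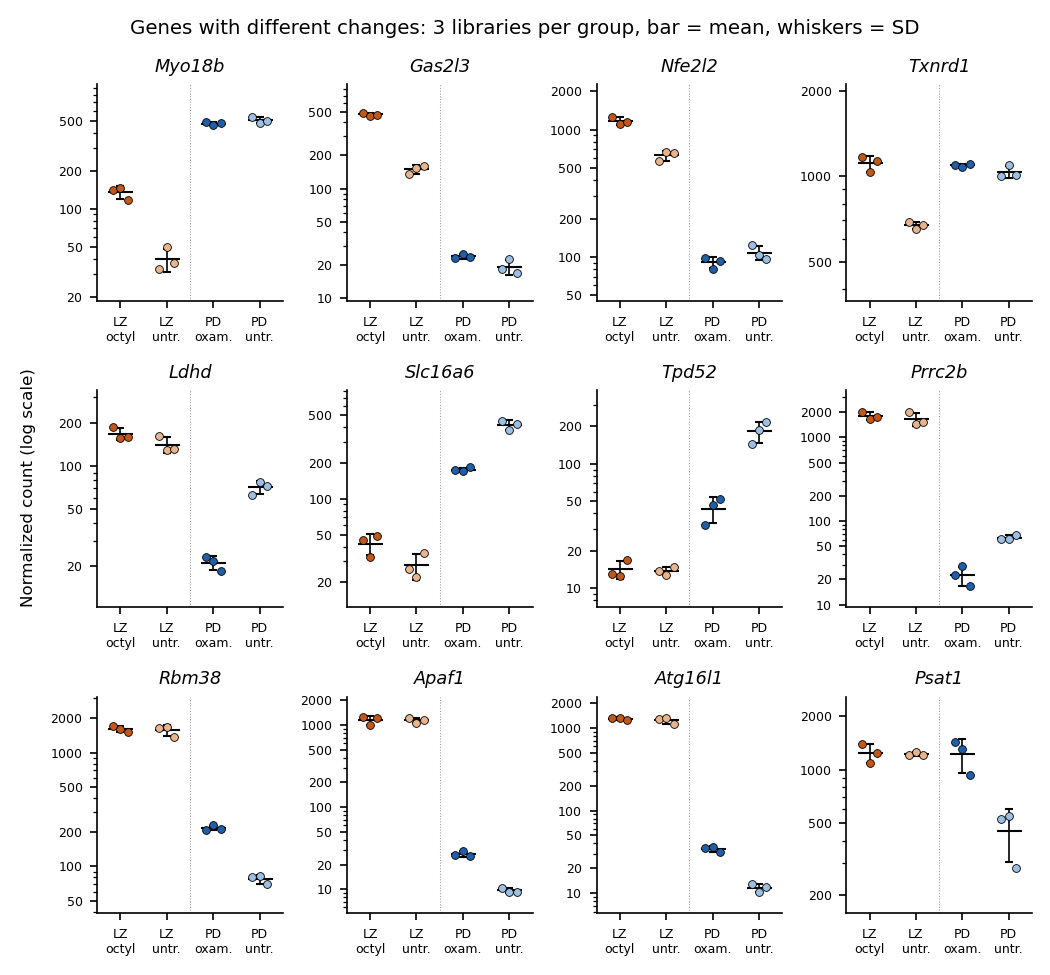
Normalized counts (log axis) of 12 genes with a called difference, 3 libraries per group as points, with the mean as a bar and the SD as whiskers; LZ groups stand left and PD groups right of the dotted line. Myo18b, Gas2l3, Nfe2l2 and Txnrd1 are apart between treated and untreated LZ cells, and Gas2l3 is apart in PD cells too. The other 8 are apart between oxamate and untreated PD cells and overlap in LZ cells.

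Of the 78 negative differences, 74 were in genes called higher with oxamate alone. Treated and untreated libraries were apart in PD cells in 76 of the 78 and in LZ cells in 22. Of all genes of both stages, 35.7% were apart in PD cells and 19.3% in LZ cells. The 78 were chosen by a test on these same libraries, so their separation in PD cells is no separate evidence. Rbm38, an RNA-binding protein induced by p53, had 1733, 1605 and 1535 counts with octyl-L2HG and 1651, 1680 and 1374 in untreated LZ cells, against 211, 230 and 212 with oxamate and 80.4, 82.3 and 69.5 in untreated PD cells. Every oxamate library lay above every untreated PD library. The oxamate change was 1.48 ± 0.11 (limma adjusted p = 3.78e-05), the octyl-L2HG change 0.06 ± 0.11 (adjusted p = 0.887) and the difference -1.43 ± 0.15 (adjusted p = 0.00323). Apaf1, the core of the apoptosome, had 1240, 995 and 1231 counts with octyl-L2HG and 1215, 1067 and 1155 in untreated LZ cells, against 26.0, 29.6 and 25.6 with oxamate and 10.5, 9.15 and 9.32 in untreated PD cells. It was higher with oxamate without overlap, with a difference of -1.39 ± 0.20 (adjusted p = 0.00721). Atg16l1, which directs lipidation of LC3 in autophagy, had 1332, 1303 and 1238 counts with octyl-L2HG and 1266, 1310 and 1114 in untreated LZ cells, against 35.0, 36.5 and 31.5 with oxamate and 12.8, 10.3 and 11.9 in untreated PD cells. Its difference was -1.41 ± 0.19 (adjusted p = 0.0045). In all 3 genes the PD level stayed far below the LZ level also with oxamate. Apaf1, and among the genes given further on Mafk, Rhbdf1 and Pim2, averaged under 10 in untreated PD cells and reached the PD minimum only through the oxamate libraries.

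Psat1, which makes the serine precursor phosphoserine, stood at LZ levels with oxamate. It had 1388, 1093 and 1246 counts with octyl-L2HG and 1210, 1251 and 1208 in untreated LZ cells, against 1423, 1303 and 932 with oxamate and 528, 548 and 283 in untreated PD cells. The LZ groups overlapped and the PD groups were apart, with an oxamate change of 1.46 ± 0.22 and a difference of -1.45 ± 0.31 (limma adjusted p = 0.0467). The call of the difference was lost in 8 of 12 leave-out fits, without any of the 6 LZ libraries, PD oxamate A or PD oxamate B (adjusted p up to 0.119). Of the other negative differences named by rule, Rhbdf1, an inactive rhomboid protease, had -1.78 ± 0.38, and Sos2, a Ras exchange factor, -1.58 ± 0.31. Kcnh2, a potassium channel, had -1.56 ± 0.33, Tgif2, a repressor of TGF-beta signalling, -1.51 ± 0.30, and Mafk, a small Maf protein that pairs with NRF2, -1.44 ± 0.28. Their adjusted p-values were 0.0269 to 0.0401, and each was lost in 7 to 10 leave-out fits, always including those without LZ octyl-L2HG A, B or C and without PD oxamate B (adjusted p up to 0.107). Leaving out LZ untreated B ended none of these 5 calls, and leaving out each other library ended at least 1.

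Genes called higher with both treatments were few in the fit without a block, and Ccno led them. Ccno, a cyclin-family protein needed to make the centrioles of multiciliated cells, had 201, 213 and 153 counts with octyl-L2HG and 33.0, 46.9 and 34.4 in untreated LZ cells, against 114, 120 and 78.7 with oxamate and 41.9, 52.6 and 28.0 in untreated PD cells. Treated libraries lay above untreated ones in both stages. The octyl-L2HG change was 2.28 ± 0.26 (limma adjusted p = 0.000903), the oxamate change 1.35 ± 0.26 (adjusted p = 0.00634), and both calls held in all 12 leave-out fits. The difference of 0.93 ± 0.36 was not called (adjusted p = 0.215, 95% interval 0.15 to 1.71) and passed the threshold with the block (adjusted p = 0.0405).

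The count of genes called for both changes was 7 higher in both, 1 opposite and 0 lower in both. At an unadjusted p under 0.05 the numbers were 398, 111 and 21, and with voom weights 0 genes were lower in both. Set beside it, 33 of the 11261 genes were called higher and 4 lower with octyl-L2HG, and 929 higher and 198 lower with oxamate. Over all genes tested in LZ cells the shares called were 0.276% and 0.0307%, and over all genes tested in PD cells 6.13% and 1.65%. With the code as a block the counts were 510 and 74 for octyl-L2HG and 1909 and 399 for oxamate. The number of genes called for both changes with the block is not given here. With scaling by total count the counts were 19 and 8 for octyl-L2HG and 749 and 328 for oxamate, and with TMM scaling within each stage 19 and 6 for octyl-L2HG. The 37 calls for octyl-L2HG were 66 without LZ untreated B, 27 without LZ untreated A and 17 to 24 without any other library. The 1127 calls for oxamate were 539 without PD oxamate B, 712 without PD oxamate C, 736 without PD untreated A, 714 without PD untreated B and 646 without PD untreated C.

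Gnao1, a G protein subunit, had 830, 580 and 694 counts with octyl-L2HG and 434, 305 and 334 in untreated LZ cells, against 3017, 3156 and 3320 with oxamate and 2084, 2294 and 2270 in untreated PD cells. Asap1, an Arf GTPase-activating protein, had 592, 546 and 633 counts with octyl-L2HG and 403, 394 and 394 in untreated LZ cells, against 5936, 6394 and 6463 with oxamate and 4877, 5071 and 4611 in untreated PD cells. In both genes the groups were apart in both stages. Their octyl-L2HG changes of 0.97 ± 0.14 and 0.57 ± 0.08 held in all leave-out fits. The oxamate change of Gnao1, 0.51 ± 0.14 (limma adjusted p = 0.0361), was lost without any of the 6 PD libraries or LZ octyl-L2HG C (adjusted p up to 0.12), and that of Asap1, 0.37 ± 0.08, without PD oxamate B, PD oxamate C or PD untreated C (adjusted p of 0.0607, 0.0527 and 0.0588). The difference of Gnao1, 0.46 ± 0.19, was called with the block (adjusted p = 0.0153). Tada2b, an adaptor of the SAGA acetyltransferase, had changes of 0.44 ± 0.08 and 0.47 ± 0.08, and Fam168a of 0.57 ± 0.11 and 0.59 ± 0.11. Psmd5, a chaperone of proteasome assembly, had 0.63 ± 0.10 and 0.40 ± 0.10. The octyl-L2HG calls of Tada2b and Fam168a were lost in 11 of 12 leave-out fits, all but those without LZ untreated C for Tada2b and LZ untreated B for Fam168a (adjusted p up to 0.191 and 0.225). Those of Psmd5 were lost in 4 fits for octyl-L2HG, without LZ octyl-L2HG A, LZ octyl-L2HG B, LZ untreated A or LZ untreated C (adjusted p up to 0.118), and in 5 for oxamate, without PD oxamate A or B or any untreated PD library (adjusted p up to 0.0951). With TMM scaling within each stage, the octyl-L2HG calls of Tada2b, Fam168a and Psmd5 were also lost (adjusted p of 0.081, 0.112 and 0.0503).

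**Figure D3:**
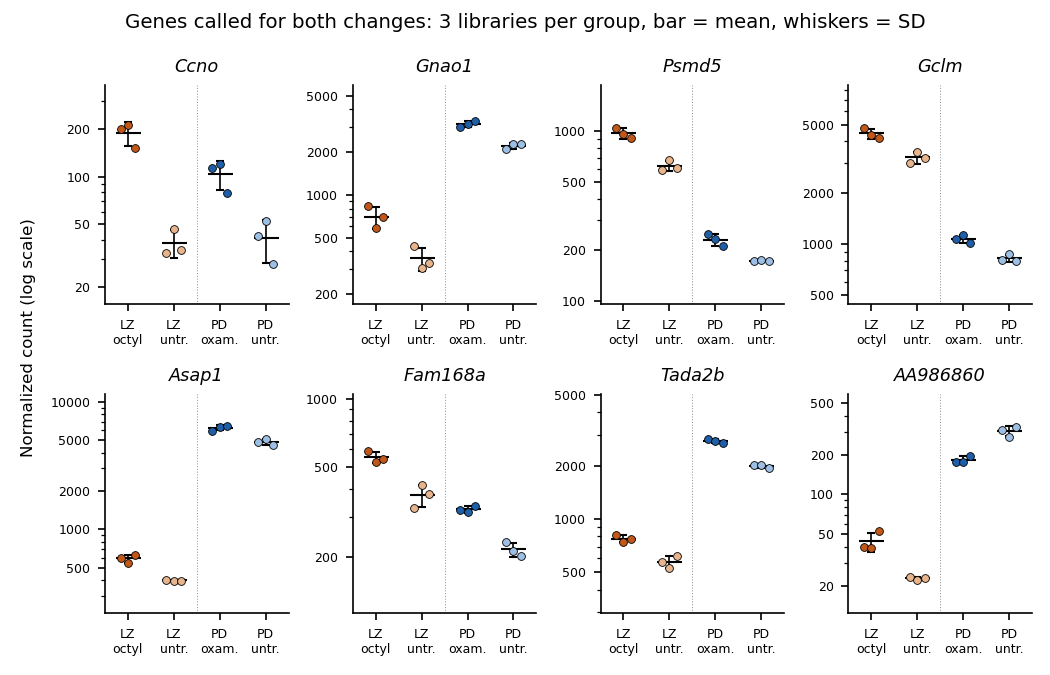
Normalized counts (log axis) of the 8 genes called for both changes in the fit without a block, 3 libraries per group as points. The mean is a bar and the SD whiskers. LZ groups stand left and PD groups right of the dotted line. In 7 genes the treated libraries lie above the untreated ones in both stages; AA986860 lies above in LZ cells and below in PD cells.

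The mean of the 2 changes was called higher in 1004 genes (8.92% of those tested) and lower in 96 (0.852%). Of the 1004, the oxamate change alone was also called in 672, the octyl-L2HG change alone in 22, both in 7 and neither in 303, so a called mean does not show that both changes differ from 0. The octyl-L2HG change was positive in 96.7% of them, with a median of 0.22, and the median oxamate change was 0.45. The balance of directions depended on the scaling: 473 genes were called higher and 211 lower with scaling by total count. Of the called means, 69.2% were then higher, against 91.3% in the main fit. With the code as a block, which kept the scaling, 2278 were higher and 305 lower, or 88.2% higher. The number called was 519 without LZ octyl-L2HG A and 659 without PD oxamate B.

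The rises of the mean named by rule were Gas2l3, Ccng2, Sbk1, Fnip2, Pgm2l1, Shld2, Glce, Gnao1, Naa16 and Fbxo25, with mean changes of 0.70 to 0.98. The rule took genes whose treated libraries lay above the untreated ones in both stages. Pgm2l1, which makes glucose-1,6-bisphosphate, had 1804, 1636 and 1898 counts with octyl-L2HG and 1224, 1257 and 1580 in untreated LZ cells, against 836, 1069 and 1097 with oxamate and 442, 487 and 415 in untreated PD cells. Its mean change was 0.78 ± 0.09 (limma adjusted p = 0.000611). The difference of Pgm2l1, -0.75 ± 0.18 (adjusted p = 0.0539), was called with the block (adjusted p = 0.0162) and with TMM scaling within each stage (adjusted p = 0.0343). That of Fbxo25, -0.85 ± 0.24 (adjusted p = 0.0943), was called with TMM scaling within each stage (adjusted p = 0.0492). Fnip2, a partner of folliculin in AMPK and mTORC1 signalling, had 465, 379 and 469 counts with octyl-L2HG and 359, 284 and 331 in untreated LZ cells, against 109, 104 and 121 with oxamate and 62.9, 50.3 and 37.3 in untreated PD cells, a mean change of 0.80 ± 0.13 (adjusted p = 0.00313). Shld2, a shieldin subunit that restrains resection of DNA breaks, had 793, 764 and 800 counts with octyl-L2HG and 671, 577 and 650 in untreated LZ cells, against 109, 108 and 121 with oxamate and 51.2, 48.0 and 45.8 in untreated PD cells. Its mean change was 0.76 ± 0.08, and its changes of 0.31 and 1.20 also differed (adjusted p = 0.019), a call lost without LZ octyl-L2HG A, B or C (adjusted p of 0.053, 0.0672 and 0.0565). The means of these 10 genes stayed called in every leave-out fit.

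Falls of the mean were fewer, and 9 genes met the rule for naming them, with treated libraries below untreated ones in both stages. Srgap1, a GTPase-activating protein of Slit-Robo signalling, had 2633, 2862 and 2769 counts with octyl-L2HG and 4635, 3276 and 3318 in untreated LZ cells, against 57.4, 64.1 and 53.1 with oxamate and 93.2, 102 and 105 in untreated PD cells. Its mean change was -0.60 ± 0.09 (limma adjusted p = 0.00253). Prkcd, protein kinase C delta, had 867, 778 and 865 counts with octyl-L2HG and 1082, 902 and 930 in untreated LZ cells, against 196, 197 and 219 with oxamate and 326, 359 and 412 in untreated PD cells, a mean change of -0.52 ± 0.08. The difference of Prkcd, 0.62 ± 0.16 (adjusted p = 0.0693), was called with the block (adjusted p = 0.0152) and with TMM scaling within each stage (adjusted p = 0.034). Pcdh17, a protocadherin, had a mean change of -0.68 ± 0.12 and Dlg5, a polarity scaffold, of -0.47 ± 0.11. The mean calls of these 4 genes held in every leave-out fit. The calls of Spata31d1a, H1f10, Gins1, Zfp408 and Iqck, with mean changes of -0.44 to -0.32, were lost in 4 to 9 of the 12 leave-out fits (adjusted p up to 0.0774). All 5 were lost without PD untreated C, all but Spata31d1a also without PD oxamate C, and leaving out each other library except LZ untreated A or LZ untreated B ended at least 1. H1f10, a linker histone, was most abundant in untreated LZ A, with 977 counts there.

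Of 32 genes of the amino acid response, many of them targets of ATF4, 8 rose with oxamate, 9 were called higher in the mean and 1, Psat1, had a negative difference. The median octyl-L2HG change was 0.13 and the median oxamate change 0.48. Slc38a2, a neutral amino acid transporter, had 3552, 2752 and 3319 counts with octyl-L2HG and 2793, 2256 and 2522 in untreated LZ cells, against 759, 686 and 441 with oxamate and 267, 246 and 218 in untreated PD cells. The LZ groups overlapped, and the oxamate groups were apart. Its oxamate change was 1.33 ± 0.17 (limma adjusted p = 0.00091), and its difference of -0.99 ± 0.24 (adjusted p = 0.0626) passed the threshold with the block (adjusted p = 0.0084) and with TMM scaling within each stage (adjusted p = 0.0288). Mars, methionyl-tRNA synthetase, had an oxamate change of 0.65 ± 0.12 and Sesn2, a leucine sensor, of 0.71 ± 0.15, which was not called without PD oxamate B (adjusted p = 0.0551) or PD untreated C (adjusted p = 0.0595). Chosen after their values were seen, Atf4 itself had changes of -0.08 and 0.32, and Asns, asparagine synthetase, of 0.05 and -0.23, none of which was called.

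Against 8.25% of all genes higher with oxamate, the p53 and apoptosis list had 7 of 22, and its medians were 0.09 and 0.21. A negative difference was called in 2 of the 22, Rbm38 and Apaf1, against 0.693% of all genes. Apaf1 reached the PD minimum only through the oxamate libraries, where it was high. Cflar, an inhibitor of caspase 8, had 45.4, 43.3 and 45.0 counts with octyl-L2HG and 40.9, 29.3 and 31.0 in untreated LZ cells, against 141, 184 and 181 with oxamate and 67.6, 80.0 and 61.0 in untreated PD cells. The groups were apart in both stages, and the mean change was 0.84 ± 0.14 (limma adjusted p = 0.00389). In the unfolded protein list 7 of 29 genes rose with oxamate. Hyou1, a chaperone of the endoplasmic reticulum, had changes of -0.16 ± 0.11 and 0.66 ± 0.11 and a difference of -0.82 ± 0.16 (adjusted p = 0.0288), and Ern1, its stress sensor, a difference of -0.69 ± 0.15 (adjusted p = 0.0424). Both differences were lost without LZ octyl-L2HG A, B or C, PD oxamate A, PD oxamate B or PD untreated C, and that of Ern1 also without LZ untreated A, LZ untreated C or PD untreated B (adjusted p up to 0.0899 and 0.115). Of 21 sterol and fatty acid genes 5 rose with oxamate and 1 fell. Insig1, which retains the sterol sensor SCAP, had 138, 183 and 145 counts with oxamate and 59.4, 89.2 and 55.1 in untreated PD cells, and a difference of -1.18 ± 0.23 (adjusted p = 0.0252) that was lost without LZ octyl-L2HG A, B or C, LZ untreated A, LZ untreated C, PD oxamate B or PD untreated C (adjusted p up to 0.081).

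**Figure D4:**
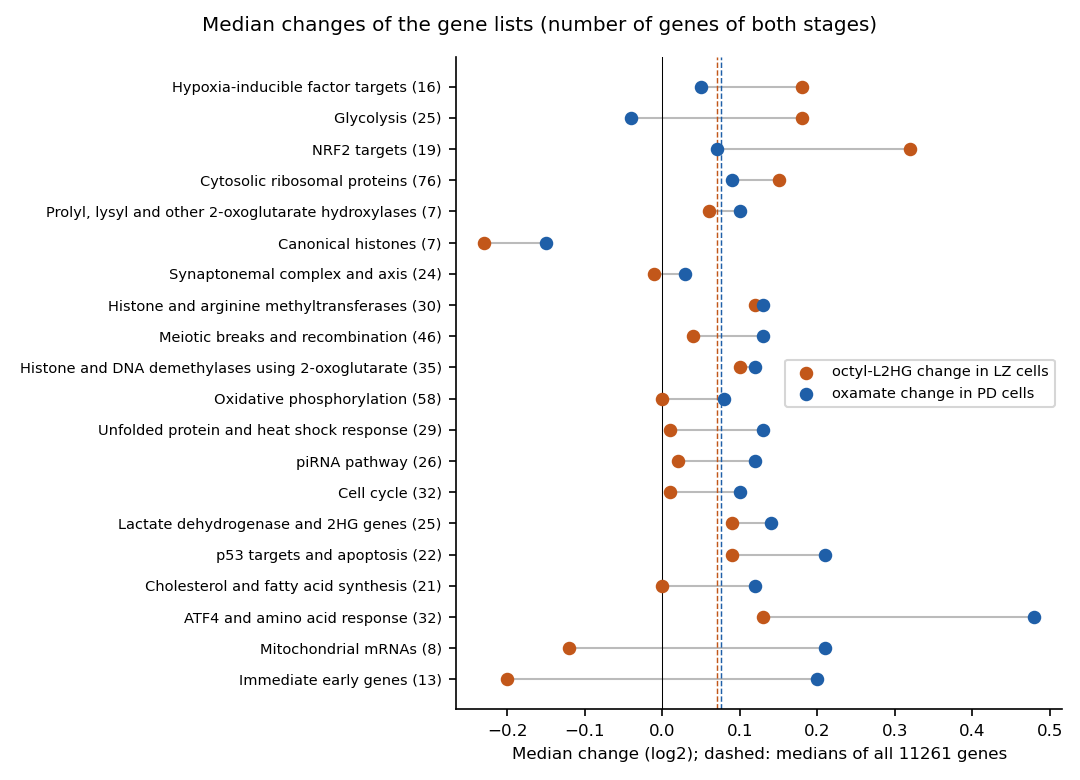
Median octyl-L2HG change in LZ cells and median oxamate change in PD cells (horizontal axis, log2) for the 20 gene lists with at least 5 genes of both stages. This leaves out the aryl hydrocarbon receptor list, with 3 genes. The number of genes of both stages stands in brackets, and dashed lines mark the medians of all 11261 genes. The NRF2 list lies right of the others for octyl-L2HG (0.32), and the amino acid response list for oxamate (0.48).

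The list of lactate dehydrogenase and 2HG genes gave few calls, with a share of rises with oxamate near the 8.25% of all genes. Of its 25 genes, 2 rose and 1, Ldhd, fell with oxamate, 2 were called higher in the mean, and the medians were 0.09 and 0.14. Of 3 genes chosen after their values were seen, D2hgdh, which oxidises D-2-hydroxyglutarate, had changes of 0.55 and -0.46, neither called. Ldha had 0.08 and 0.09 and Ldhc, the germ cell subunit of lactate dehydrogenase, 0.16 and 0.03. Glud1, glutamate dehydrogenase, rose with oxamate by 0.59 ± 0.16 (limma adjusted p = 0.0336), a call lost in 7 leave-out fits, without LZ octyl-L2HG C, LZ untreated C, any oxamate library, PD untreated A or PD untreated B (adjusted p up to 0.119). The mean of Glud1 was 0.41 ± 0.11 (adjusted p = 0.0333). Mdh2, the mitochondrial malate dehydrogenase, was called in the mean at 0.31 ± 0.09 (adjusted p = 0.042), with changes of 0.30 and 0.31 that were not. The mean calls of Glud1 and Mdh2 were each lost in 8 leave-out fits (adjusted p up to 0.102 and 0.119). That of Mdh2 was also lost with TMM scaling within each stage (adjusted p = 0.0569). In glycolysis, where the medians were 0.18 and -0.04 over 25 genes, Pfkp, a phosphofructokinase, had changes of -0.30 ± 0.09 and 0.29 ± 0.09, called with the block (adjusted p of 0.0346 and 0.0123), and a difference of -0.59 ± 0.13 (adjusted p = 0.0494), lost in 11 of 12 leave-out fits, all but that without LZ untreated A (adjusted p up to 0.125).

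Among the dioxygenases and methyltransferases of chromatin most called changes were rises with oxamate, as over all genes, where 929 were called higher and 198 lower. Of all genes, 8.25% were called higher with oxamate and 8.92% higher in the mean. Of 35 histone and DNA demethylases that use 2-oxoglutarate, 7 rose and 2 fell with oxamate, 4 were higher in the mean and 1 had a negative difference, with medians of 0.10 and 0.12. Kdm6b, a demethylase of histone H3 lysine 27, had 998, 863 and 936 counts with octyl-L2HG and 1048, 848 and 850 in untreated LZ cells, against 374, 378 and 422 with oxamate and 197, 242 and 237 in untreated PD cells. The LZ groups overlapped, and the oxamate libraries lay above the untreated PD ones. Its oxamate change was 0.80 ± 0.12 (limma adjusted p = 0.00173), and its difference of -0.77 ± 0.17 (adjusted p = 0.0424) was lost in 11 of 12 leave-out fits, all but that without LZ untreated B (adjusted p up to 0.116). Kdm5a, a demethylase of lysine 4, had a mean change of 0.27 ± 0.05 (adjusted p = 0.00664) that held in every leave-out fit, with changes of 0.14 and 0.39. Of 30 methyltransferases 7 rose with oxamate and 7 were higher in the mean. Kmt5a, which methylates histone H4, had changes of -0.02 ± 0.11 and 0.72 ± 0.11 and a difference of -0.73 ± 0.16 (adjusted p = 0.0431), lost in 10 leave-out fits, all but those without LZ untreated B or PD untreated B (adjusted p up to 0.117). Carm1, an arginine methyltransferase, rose in the mean by 0.38 ± 0.06 (adjusted p = 0.00242).

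Meiotic genes gave few calls, beside 8.25% of all genes called higher with oxamate. Of 46 recombination genes 1 rose with oxamate, Topbp1, an activator of the ATR kinase, and 1 had a positive difference, Xrcc2, which acts in homologous recombination. The Topbp1 rise of 0.48 ± 0.11 was lost without PD oxamate B, PD oxamate C, PD untreated A or PD untreated C (adjusted p up to 0.081). Xrcc2 had 603, 564 and 574 counts with octyl-L2HG and 441, 420 and 416 in untreated LZ cells, against 348, 361 and 379 with oxamate and 396, 374 and 397 in untreated PD cells. The LZ groups were apart and the PD groups overlapped. The difference of 0.55 ± 0.12 (limma adjusted p = 0.0498) was lost whichever library was left out (adjusted p of 0.0549 to 0.12). Of 24 synaptonemal complex and axis genes 2 rose with oxamate, Majin, which ties telomeres to the nuclear envelope, and Hormad2, an axis protein, at 0.48 ± 0.13 and 0.49 ± 0.12. Those rises were lost in 10 leave-out fits for Majin, all but those without LZ untreated A or LZ untreated B (adjusted p up to 0.147), and without PD oxamate B, PD oxamate C, PD untreated A or PD untreated B for Hormad2 (adjusted p up to 0.0784). Their differences of -0.81 ± 0.19 and -0.55 ± 0.17 were called with the code as a block (adjusted p of 0.0136 and 0.019) and for Majin also with TMM scaling within each stage (adjusted p = 0.0149). The cell cycle list had 3 of 32 genes higher with oxamate, near the share over all genes. Ccne1, cyclin E1, had changes of -0.55 ± 0.18 and 0.66 ± 0.18. With the block its octyl-L2HG change was called (adjusted p = 0.038). The oxamate change was called (adjusted p = 0.0437) and lost in 8 leave-out fits, without LZ octyl-L2HG B or C or any PD library (adjusted p up to 0.167). Its difference of -1.21 ± 0.26 (adjusted p = 0.0427) was lost in 10 leave-out fits, all but those without LZ untreated B or LZ untreated C (adjusted p up to 0.119).

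Other lists gave 1 call or none beyond single changes. Of 13 immediate early genes 2 rose with oxamate, Egr1 and Gadd45b, transcription and stress regulators, by 0.74 ± 0.15 and 0.99 ± 0.21, with octyl-L2HG changes of -0.18 and -0.20 that were not called. Their differences of -0.92 ± 0.21 and -1.19 ± 0.30 were called with the code as a block (limma adjusted p of 0.0162 and 0.0226). Of 16 hypoxia-inducible genes, 1 rose with oxamate, Kdm3a, a demethylase of histone H3 lysine 9, by 0.41 ± 0.09 (adjusted p = 0.0101, and 0.0551 without PD oxamate B). Of 76 ribosomal protein genes 67 had changes of the same sign, with medians of 0.15 and 0.09. The sign was shared by 56.5% of all genes and by 67% of genes with a mean of at least 1000 in both stages. Small positive medians over all genes depended on the scaling, as given above. Among the ribosomal protein genes 1, Rpl5, was called higher in the mean, by 0.23 ± 0.06 (adjusted p = 0.0274). That call was lost without LZ octyl-L2HG A, LZ untreated C, PD oxamate A or B, or PD untreated B or C (adjusted p up to 0.0777), and with TMM scaling within each stage (adjusted p = 0.0764). Of 58 oxidative phosphorylation genes 1, Cox6b2, a subunit of cytochrome oxidase found in testis, was called lower in the mean, by -0.46 ± 0.13. It had 715, 594 and 690 counts with octyl-L2HG and 1835, 948 and 1103 in untreated LZ cells, against 3856, 3599 and 3356 with oxamate and 3861, 3702 and 3410 in untreated PD cells. Its mean call was lost in 10 leave-out fits, all but those without LZ untreated A or LZ untreated B (adjusted p up to 0.0824), and its octyl-L2HG change of -0.90 ± 0.18 (adjusted p = 0.0671) was called with the block (adjusted p = 0.0183). Of 26 piRNA pathway genes 1, Henmt1, which methylates piRNA ends, was called higher in the mean, by 0.34 ± 0.08 (adjusted p = 0.0191, and 0.0565 without PD oxamate B).

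X-linked genes were among the genes that rose with oxamate and not detectably with octyl-L2HG. Of 201 X-linked genes, 12 (5.97%) had a negative difference, against 66 of 11041 autosomal genes (0.598%), and 41 (20.4%) rose with oxamate, against 888 (8.04%). The minimum was a mean over all 6 PD libraries, so a gene low in untreated PD cells could enter through the oxamate libraries alone, as Pim2 did. Such entry favours rises with oxamate and negative differences. How many of the X-linked genes entered that way was not counted, so these shares are descriptions only. The test found 0 X-linked genes with a positive difference, where 9 had an unadjusted p under 0.05, and 0 with voom weights. The median octyl-L2HG change of X-linked genes was -0.04 and their median oxamate change 0.22, against 0.07 and 0.08 for autosomal genes. Pim2, a serine/threonine kinase, had 514, 498 and 456 counts with octyl-L2HG and 682, 566 and 556 in untreated LZ cells, against 27.8, 27.6 and 21.6 with oxamate and 9.32, 5.72 and 12.7 in untreated PD cells. Kif4, a chromosome-arm kinesin, had 1069, 993 and 1022 counts with octyl-L2HG and 1223, 1083 and 993 in untreated LZ cells, against 83.4, 112 and 74.8 with oxamate and 33.8, 43.5 and 30.5 in untreated PD cells. Their differences were -1.72 ± 0.32 (limma adjusted p = 0.023) and -1.39 ± 0.23 (adjusted p = 0.016). The call of Pim2 was lost without LZ octyl-L2HG A, B or C, LZ untreated A or PD oxamate B (adjusted p up to 0.0706), and that of Kif4 without LZ octyl-L2HG B or C (adjusted p of 0.0532 and 0.051). Hcfc1, a cofactor of cell proliferation chosen after its values were seen, had 7932, 7263 and 7262 counts with octyl-L2HG and 7892, 6454 and 6583 in untreated LZ cells, against 188, 219 and 214 with oxamate and 110, 112 and 111 in untreated PD cells, a difference of -0.78 (adjusted p = 0.0168). Of all counts, the X chromosome held 0.207% to 0.236% with oxamate and 0.206% to 0.253% in untreated PD cells, and the leptotene and zygotene markers 0.159% to 0.214% and 0.170% to 0.221%, so that both shares overlapped between the PD groups. The pachytene and diplotene markers held 2.48% to 2.61% with oxamate and 2.63% to 2.65% untreated, and the spermatogonial markers 0.00702% to 0.00786% and 0.00642% to 0.00697%. The part of these shifts in the X-linked changes was not tested.

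**Figure D5:**
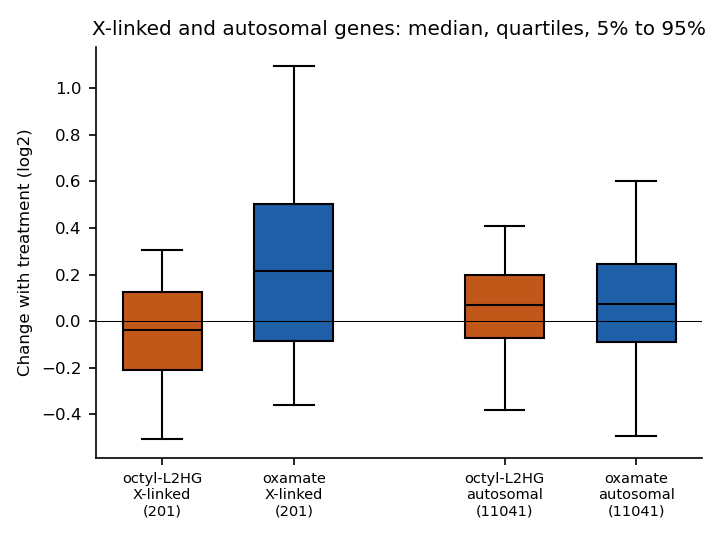
Octyl-L2HG change in LZ cells and oxamate change in PD cells (vertical axis, log2) of 201 X-linked and 11041 autosomal genes, with the median as a line, quartiles as a box and whiskers from 5% to 95% of genes. The oxamate box of X-linked genes stands highest, with a median of 0.22.

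The genes that oxamate raised mostly had a small positive octyl-L2HG change, as most genes did. Of the 929 genes called higher with oxamate, 81.4% had a positive octyl-L2HG change, with a median of 0.13, and of the 198 called lower 64.6% did, with a median of 0.09. At a mean of at least 1000 in both stages the shares were 88.3% of 240 genes called higher and 76.3% of 1677 genes not called for oxamate. Among the 33 genes called higher with octyl-L2HG, 21 had a positive oxamate change and 14 a positive difference.

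In the authors' deposited table, 74 of the same genes were called higher and 53 lower with octyl-L2HG, and 1104 higher and 337 lower with oxamate. That table calls 20 genes higher and 2 lower in both comparisons and 10 in opposite directions, and its log2 fold changes correlate across genes with a Pearson r of 0.042. The authors' deposited table gives Ccno log2 changes of 2.29 and 1.35, Cyp1b1 2.07 and -1.03, and Ccne1 -0.60 and 0.64, all 3 called in both.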

How the data were processed

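RNA was sequenced from polyA-selected, stranded libraries, per the labels' protocols. The submitters' processing notes name the build GRCm38 and the tools HTSeq 0.6.0, TopHat2 2.1.1, DESeq2 1.22.2, cutadapt 1.18 and bcl2fastq 2.18.0.12. The authors deposited 1 table with a read count per gene and library beside their own log2 fold changes and p-values. Of its 55471 genes, 6255 hold a question mark in place of each count, 0 of them protein-coding, and were left out.

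The deposited counts were scaled with TMM factors (30% and 5% trims), a pseudocount of 1 was added and limma 3.58.1 in R 4.3.3 (trend and robust moderation) was fitted to log2 values of 17011 genes with 4 group means over the 12 libraries, leaving 8 residual degrees of freedom. A count model was not used because the table holds those question marks. The difference (octyl-L2HG change minus oxamate change), the mean and both single changes were tested over all genes with a mean of at least 10 in the stages concerned, with Benjamini-Hochberg adjustment and a threshold of 0.05. Calls of the single changes are adjusted over 13039 genes in LZ and 15233 in PD cells. The added 1 makes log2 changes of low genes too small. The median SE was 0.213 for a difference and 0.150 for a single change. P-values rest on the spread between the 3 libraries within a group, estimated jointly for the 4 groups and moderated across genes. The call of an octyl-L2HG change therefore also depends on PD libraries, and that of an oxamate change on LZ libraries. The code was left out of this fit, so variation that treated and untreated libraries of a code share counted as error.

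Genes just inside the minimum mean were H2-Q7 and Gm46378 in PD cells, at 10.0 and 10.0, and just outside it Gsg1 in LZ cells at 9.99. Of the 11261 members, 229 had 1 LZ group and 230 had 1 PD group with a mean under 10, so that such members entered through the other group.

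The genes named were the 10 largest called differences in each direction among genes that average 100 or more in at least 1 stage with non-overlapping groups in at least 1, the 10 largest called rises and falls of the mean among genes that average 100 or more over all 12 libraries with groups apart in the same direction in both stages (clone-like and predicted names left out of both), all genes called for both changes, and of each list the called members or else the 2 with the smallest p. Members and lists were chosen with earlier results of these data known.

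Libraries of a stage with the same code deviated together from their group means (correlations of 0.134, 0.335 and 0.161 in LZ and 0.488, 0.299 and 0.437 in PD cells). Between an LZ and a PD library of the same code the correlations were 0.004 to 0.225. Whether the code marks a pairing within a stage or an effect shared by all 4 groups was not tested. Codes were not matched to the replicate numbers of the labels. Columns of the table were assigned to groups by their names, reading POS as treated and PACH as PD, which the labels do not spell out. Fits were repeated with other scalings, pseudocounts, minimum means, weights and blocks, and without each library in turn with the scaling kept. Promoter windows came from RefSeq and were searched on both strands. The fit was tested on simulated data.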

Additional observations from a re-analysis of the deposited data

Results flagged for a closer look

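For 23 genes named above by rule, the test of the difference between the octyl-L2HG change in LZ cells and the oxamate change in PD cells passed an adjusted p of 0.05 in limma. Among those higher for octyl-L2HG than for oxamate, the log2 difference was 2.08 for Tpd52, 1.94 for Ldhd, 1.84 for Myo18b, 1.82 for Slc16a6, 1.78 for Myo15, 1.62 for AA986860 and 1.62 for Prrc2b. It was 1.34 for Gas2l3, 1.29 for Atxn7l1, 1.26 for Noxred1 and 1.19 for Lgr4. Among those lower, it was -0.77 for Naa16, -0.89 for Shld2, -1.39 for Kif4, -1.41 for Atg16l1, -1.43 for Rbm38 and -1.44 for Mafk. It was -1.45 for Psat1, -1.51 for Tgif2, -1.56 for Kcnh2, -1.58 for Sos2, -1.72 for Pim2 and -1.78 for Rhbdf1. Naa16, an auxiliary subunit of the N-terminal acetyltransferase, rose with oxamate by 1.11 ± 0.11 and had an octyl-L2HG change of 0.35 ± 0.11 (limma adjusted p = 0.217). Its difference (adjusted p = 0.0383) was lost in 8 leave-out fits, all but those without LZ untreated A, LZ untreated B, PD oxamate A or PD untreated C (adjusted p up to 0.104).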

How the results depend on the processing

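The correlation of the changes stayed between 0.009 and 0.065 under the alternatives and leave-out fits run. The 136 called differences became 388 with scaling by total count, 299 with median-of-ratios factors, 450 with TMM within each stage, 207 with a pseudocount of 5 and 35 without trend and robust moderation. With the code as a replicate block within stages 1148 differences, 2583 means, 584 octyl-L2HG and 2308 oxamate changes were called, and with a block shared by all groups 344 differences. The 1100 called means became 684 with scaling by total count and 533 without trend and robust moderation. The 37 octyl-L2HG calls became 19 with voom weights, 15 with sample weights by group, 21 without trend and robust moderation and 11 with LZ libraries alone. The cause of these shifts was not tested. Leaving out 1 library gave 35 to 228 differences, 519 to 1543 means, 17 to 66 octyl-L2HG calls, 539 to 1369 oxamate calls and a correlation of 0.024 to 0.059.

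Signs turned for differences near 0 that were not called. That of Spata31d1a was 0.045 and that of Iqck 0.002 with a pseudocount of 5, and that of Gins1 -0.001 with TMM within each stage. With 1 library left out they spanned -0.122 to 0.112 for Spata31d1a, -0.086 to 0.078 for Iqck, -0.111 to 0.052 for Fam168a, -0.094 to 0.022 for Tada2b and -0.034 to 0.116 for Gins1, and the uncalled mean of Noxred1 spanned -0.169 to 0.009. Of the other values for single named genes, 1883 kept direction and side of the threshold, 200 lost a call and 19 gained one. Genes near the minimum mean of 10 carry the most counting error.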
